A study of Homo sapiens with 12 samples.

Results

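The effect of 1 knockdown vector, labelled shCREB3, was followed in 4 acute lymphoblastic leukemia (ALL) cell lines. The 8 arrays whose titles end in shCREB3 or Scrambled were taken from the 12 arrays of the series, and within each line the shCREB3 array was paired with the scrambled array. Jurkat and Molt4 are of T cell origin (T-ALL), Nalm6 and RS4;11 of B-cell precursor origin (BCP-ALL), and all are established human leukemia lines. Cells of every group carried a lentiviral pLKO1-mCherry vector, which held either an shRNA against CREB or a scrambled shRNA (also called shControl by the study), and stably transduced cells were expanded in RPMI or alpha-MEM medium with fetal calf serum before total RNA was taken. The remaining 4 arrays carried shCREB2, another shRNA against the same gene. The number in shCREB3 is a vector number: the target is CREB1, not the separate gene CREB3. A single array was run for each combination of line and vector, so the line is the replicate (n = 4 pairs), a p-value measures the spread of the response between these lines, and a value within 1 line has no replicate. The share of cells that carried the vector, the time of RNA extraction and the shRNA sequences are not given in the sources used here. A weaker response in every cell cannot be told apart from fewer responding cells.

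CREB is a transcription factor of the basic leucine zipper class that is switched on when protein kinase A, ribosomal S6 kinases or AKT phosphorylate it. It then recruits the coactivators CREBBP and EP300, while coactivators of the CRTC family bind it independently of that phosphorylation. It recognises the cyclic AMP response element (CRE) in promoters of genes of growth, survival and metabolism, and leukemic blasts often hold high levels of it.

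Expression was measured on Illumina BeadChips. Values are log2 signals, averaged over the probes of a gene and quantile-normalized between arrays, and a difference between 2 arrays is a log2 difference (1 is a doubling). Between 14320 and 15660 of 47323 probes were detected on an array. A gene was tested when a probe of it was detected (detection p under 0.01) on at least 4 of the 12 arrays, which left 12508 genes. The labelled lineages were reflected in CD3E and CD79B, markers named after their values were seen. CD3E, a chain of the T cell receptor complex, had log2 signals of 9.21 and 9.11 on the scrambled arrays of Jurkat and Molt4. In Nalm6 and RS4;11 it had 6.83 and 6.78. CD79B, a signalling chain of the B cell receptor, had 7.24 and 7.31 in the T-ALL lines and 12.31 and 10.17 in the BCP-ALL lines. Not every marker separated the lines: the B cell marker BLK had 8.01 in Jurkat and 8.25 in RS4;11. Of the marker lists for other cells, 2 of 10 myeloid, 1 of 8 erythroid and 2 of 7 embryonic kidney genes (the packaging cells for the virus) were measured, and the myeloid markers LYZ and MPO were not among them.

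CREB1 mRNA was not lower on the arrays labelled shCREB3. In the order Jurkat, Molt4, Nalm6 and RS4;11, kept below wherever 4 values follow each other, the log2 signals on the scrambled arrays were 9.50, 9.77, 10.00 and 10.13. On the shCREB3 arrays they were 9.61, 10.20, 10.18 and 10.38. The shCREB3 array was thus the higher one in each of the 4 pairs, while the ranges of the groups overlapped. The mean difference was 0.24 ± 0.06 (SE, n = 4 lines, 95% interval 0.11 to 0.38), with an adjusted p of 0.0627 in the paired limma fit. With 4 lines an exact sign-flip test cannot reach the threshold of 0.05. CREB1 had 5 probes, of which 2 were detected on all 12 arrays. These 2 were higher with shCREB3 in every line, by 0.28 and 0.27 in the mean, and the other 3 probes had mean differences of -0.11 to 0.03. When only the brightest probe was used the difference of 0.28 passed the test (adjusted p = 0.0353 with quantile normalization). The vector's action on CREB protein was not measured on these arrays. The study reports, from Western blots, that its shRNAs against CREB lowered the protein in all lines, to a varying extent. The direction of no result below is drawn from a lower CREB1 mRNA.

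Of the 12 measured members of the CREB family and its coactivators, 0 rose and 0 fell. At an unadjusted p under 0.05, 4 were higher and 1 was lower, beside 1524 and 1589 of all 12508 genes. The coactivator CRTC3 was the one with the largest difference: it was higher in all 4 lines, by 0.40, 0.52, 0.48 and 0.06 (mean 0.37 ± 0.08, adjusted p = 0.0523). The histone acetyltransferase CREBBP was higher by 0.17, 0.11, 0.33 and 0.22 (mean 0.21 ± 0.05, adjusted p = 0.0626), and its relative EP300 differed by 0.09 ± 0.05 (adjusted p = 0.357). The gene CREB3, an endoplasmic reticulum factor that shares only the vector's name, was lower by 0.14 ± 0.06 (adjusted p = 0.199). CREB3 lay near background, detected on 3 of the scrambled arrays and 1 of the shCREB3 arrays. ATF1, the closest relative of CREB1, differed by -0.05 ± 0.06 (adjusted p = 0.679). Of 18 measured genes that textbooks give as CREB targets, 0 passed the test in either direction. A mean above 0 was found in 14 of them, against 6441 of 12508 genes. Their median was 0.068, against 0.00368 over all genes. Of 17 kinases and partners upstream of CREB, 0 passed, with a median of -0.0285.

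**Figure D1:**
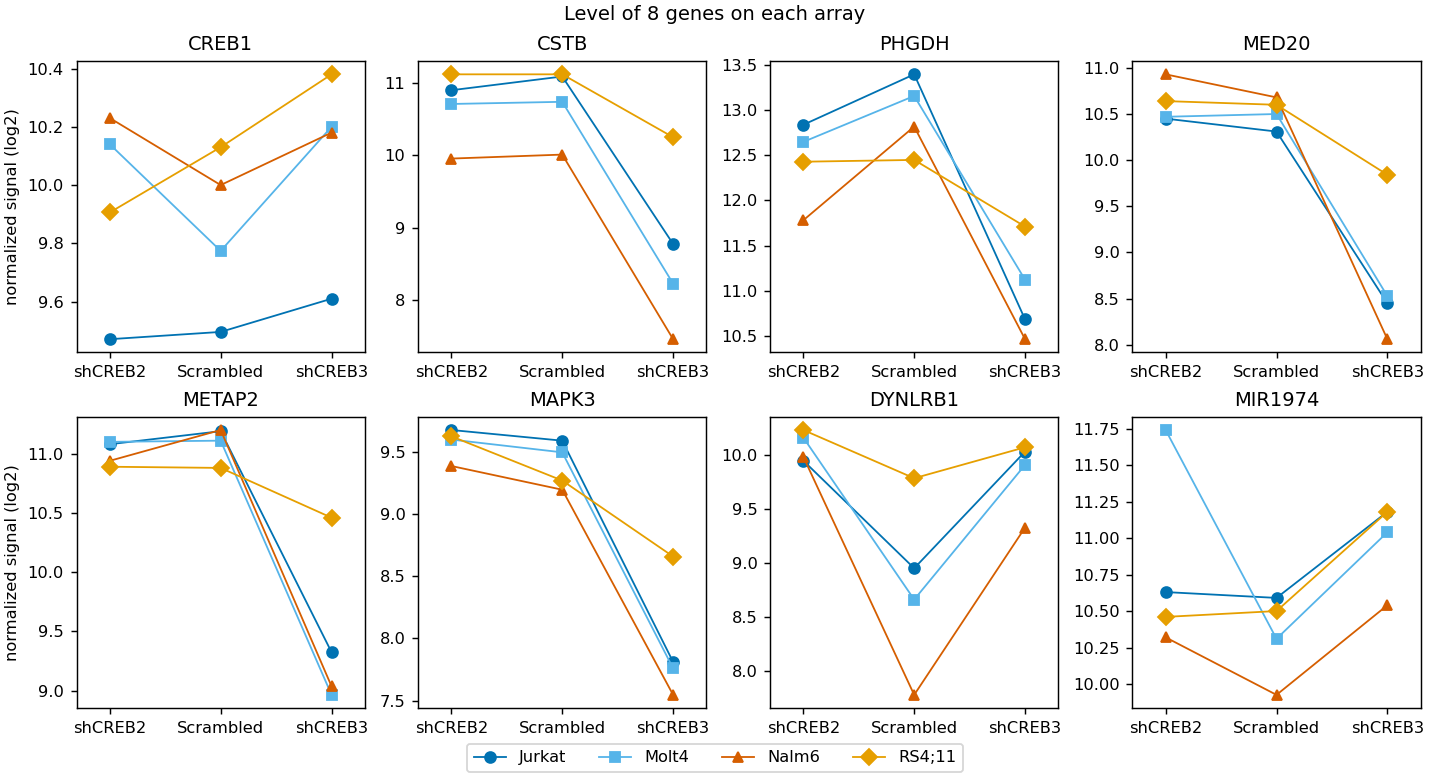
Normalized log2 signal (y axis) of 8 genes on the shCREB2, scrambled and shCREB3 array of each line (x axis), with 1 colour and marker for each line. The scrambled array stands in the middle: CREB1 was higher with shCREB3 in 4 of 4 lines, while CSTB, PHGDH, MED20, METAP2 and MAPK3 were lower with shCREB3 in 4 of 4 lines, and least so in RS4;11.

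Across the genome, falls were more numerous than rises and larger. After Benjamini-Hochberg adjustment over 12508 genes, 141 genes rose (1.13%) and 227 fell (1.81%) with shCREB3, 2.94% in all. At an unadjusted p under 0.05 there were 1524 higher and 1589 lower genes. All 368 called genes had the same direction in 4 of 4 lines, which 2068 (16.5%) of all genes had upward and 2071 (16.6%) downward. The median rise was 0.33 and the median fall -0.37 on the log2 scale, and 1 gene rose and 11 fell by more than 1. On 178 genes (1.42%) the 4 shCREB3 arrays all lay below the 4 scrambled arrays, and on 87 (0.696%) all above. The adjusted p of the calls ran from 0.012 to 0.05, so many lay near the threshold: 713 and 874 genes were under 0.1. Without RS4;11 there were 464 rises and 577 falls, 356 of the 368 called genes among them. With Jurkat, Molt4 or Nalm6 left out the same fit called 0, 0 and 3 genes. When each gene was represented by its brightest probe and arrays were scaled to the same median in place of quantile normalization, 747 genes rose and 290 fell, so that 72% of the calls were rises and not 38.3%.

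The 12 largest falls were led by CSTB, PHGDH, MED20, METAP2 and MAPK3. CSTB encodes cystatin B, a cytosolic inhibitor of cathepsins. Its log2 signals on the scrambled arrays were 11.09, 10.74, 10.01 and 11.12, and on the shCREB3 arrays 8.77, 8.22, 7.46 and 10.25. Only the RS4;11 shCREB3 array reached the level of a scrambled array, that of Nalm6. CSTB fell by 2.06 ± 0.26 in the mean (4.18-fold, adjusted p = 0.034).

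PHGDH, the enzyme that starts serine synthesis from a glycolytic intermediate, had 13.40, 13.16, 12.82 and 12.45 on the scrambled arrays. With shCREB3 it had 10.68, 11.12, 10.46 and 11.71, so that no shCREB3 array reached any scrambled array. It fell by 1.96 ± 0.28 (3.90-fold, adjusted p = 0.0389). MED20, a subunit of the Mediator complex that joins transcription factors to RNA polymerase II, had 10.31, 10.50, 10.68 and 10.60 on the scrambled arrays. With shCREB3 it had 8.45, 8.53, 8.06 and 9.84. Again the groups did not overlap, and MED20 fell by 1.80 ± 0.25 (adjusted p = 0.0389).

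METAP2, which removes the first methionine from new proteins, had 11.19, 11.11, 11.20 and 10.88 on the scrambled arrays. On the shCREB3 arrays it had 9.32, 8.96, 9.04 and 10.46. The groups did not overlap, and METAP2 fell by 1.65 ± 0.26 (adjusted p = 0.0389). MAPK3, the kinase ERK1, had 9.59, 9.50, 9.20 and 9.27 on the scrambled arrays. On the shCREB3 arrays it had 7.81, 7.76, 7.55 and 8.66, without overlap, and it fell by 1.45 ± 0.18 (adjusted p = 0.034). Both MAPK3 probes were lower in every line, with differences of -1.92, -1.98, -1.84 and -0.65 for the brighter and -1.55, -1.34, -1.33 and -0.50 for the dimmer probe.

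The other 7 of the 12 largest falls were between -1.14 and -0.98 in the mean. They were NCL (nucleolin, a ribosomal RNA processing factor), BRIX1 (assembly of the large ribosomal subunit), RPUSD4 (a pseudouridine synthase of mitochondrial RNA), TMEM93 (now EMC6, a part of the membrane protein insertion complex of the endoplasmic reticulum), APIP (an enzyme of methionine salvage), ADIPOR1 (an adiponectin receptor) and HCLS1 (a cortactin relative of blood cells that binds actin). In 10 of the 12 the shCREB3 arrays all lay below the scrambled arrays. The exceptions were CSTB and HCLS1, whose starting levels differed most between the lines. In each of the 12 genes RS4;11 had the smallest fall, 17.6% to 36.2% of the mean fall of the other 3 lines.

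**Figure D2:**
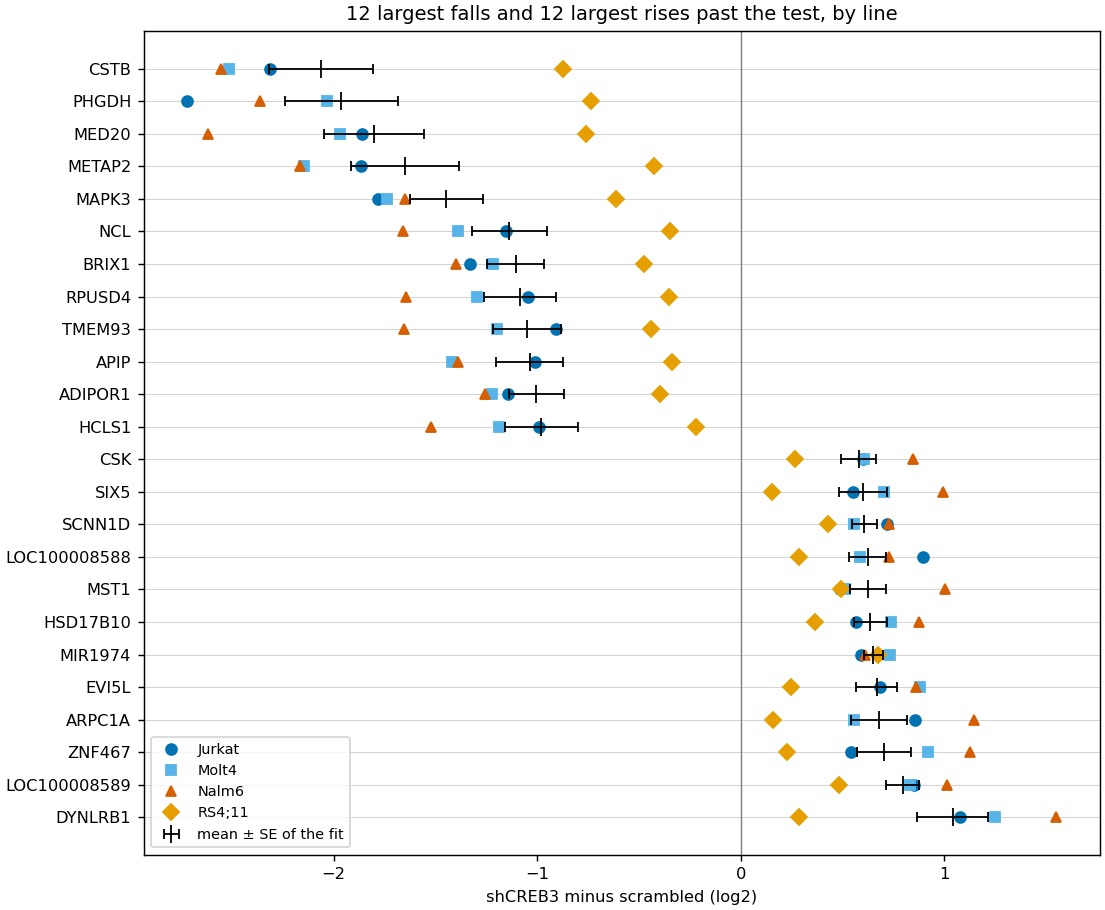
Difference of shCREB3 minus scrambled on the log2 scale (x axis) for the 12 largest falls and the 12 largest rises past the test (y axis), with 1 marker for each line and the mean ± SE of the limma fit in black. RS4;11 lay nearest to 0 in each of the 12 falls, and MIR1974 rose by 0.59 to 0.74 in all 4 lines.

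Promoter windows of 300 bases, most of each lying before the gene's start, were read from RefSeq (GRCh38.p14) and are shown for falls and 1 rise because CREB acts through the CRE. The full CRE is TGACGTCA. Its shorter core, TGACG, lies within it, and both motifs were searched on both strands. Of 35116 windows of this length in the table, 1.85% held a full CRE and 24.6% a core. A gene can have several windows, and of 8365 tested genes with a window 3.99% held a full CRE in at least 1 of them and 41.6% a core. Of the 227 falls 176 had a window, of which 14 (7.95%) held a full CRE and 91 (51.7%) a core, and of the 141 rises 106 had one, of which 3 (2.83%) and 37 (34.9%) did. These shares are a description of the matched genes: for both sets too few genes had a window for a check over the set, which is void. Among the 12 largest falls 10 had a window, and 0 of these held a full CRE and 3 a core. Windows of PHGDH, MED20 and MAPK3 held neither motif, and that of BRIX1 held 1 core. RFC3 (a clamp loader subunit of DNA replication) and PAFAH1B1 (the dynein regulator LIS1) fell and VPS37B (endosomal sorting) rose, and these 3 held a full CRE. The windows lie at PHGDH chr1:119711684-119711983 (plus strand), MED20 chr6:41920894-41921193 (minus strand), MAPK3 chr16:30123171-30123470 (minus strand), BRIX1 chr5:34915461-34915760 (plus strand), RFC3 chr13:33817899-33818198 (plus strand), PAFAH1B1 chr17:2593404-2593703 (plus strand) and VPS37B chr12:122896075-122896374 (minus strand), and capitals mark every full CRE and core. RFC3, PAFAH1B1 and VPS37B were chosen after their values and motifs were seen. A match says only that these letters are present, and no match only that they are absent from this window.
PHGDH: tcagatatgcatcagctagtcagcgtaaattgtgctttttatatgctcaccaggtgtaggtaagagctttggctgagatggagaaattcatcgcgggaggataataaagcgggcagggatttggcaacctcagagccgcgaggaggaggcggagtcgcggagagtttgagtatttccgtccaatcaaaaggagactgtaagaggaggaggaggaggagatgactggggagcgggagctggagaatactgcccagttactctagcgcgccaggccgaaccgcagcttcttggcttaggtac
MED20: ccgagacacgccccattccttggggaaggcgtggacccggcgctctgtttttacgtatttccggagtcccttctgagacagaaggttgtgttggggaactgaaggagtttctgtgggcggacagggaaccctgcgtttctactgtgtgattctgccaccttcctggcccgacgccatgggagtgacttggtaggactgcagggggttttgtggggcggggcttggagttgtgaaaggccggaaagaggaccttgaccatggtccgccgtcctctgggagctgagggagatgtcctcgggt
MAPK3: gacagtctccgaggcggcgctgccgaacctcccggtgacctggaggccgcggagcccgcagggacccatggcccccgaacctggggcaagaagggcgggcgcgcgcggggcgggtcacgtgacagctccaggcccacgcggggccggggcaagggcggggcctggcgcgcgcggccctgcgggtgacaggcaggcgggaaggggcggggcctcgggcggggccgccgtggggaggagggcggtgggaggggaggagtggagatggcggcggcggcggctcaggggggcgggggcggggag
BRIX1: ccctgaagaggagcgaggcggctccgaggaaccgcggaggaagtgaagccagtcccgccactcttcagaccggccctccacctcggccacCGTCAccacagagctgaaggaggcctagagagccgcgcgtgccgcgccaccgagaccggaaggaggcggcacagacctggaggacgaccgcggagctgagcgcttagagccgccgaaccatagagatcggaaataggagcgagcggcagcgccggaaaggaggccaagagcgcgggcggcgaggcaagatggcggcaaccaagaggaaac
RFC3: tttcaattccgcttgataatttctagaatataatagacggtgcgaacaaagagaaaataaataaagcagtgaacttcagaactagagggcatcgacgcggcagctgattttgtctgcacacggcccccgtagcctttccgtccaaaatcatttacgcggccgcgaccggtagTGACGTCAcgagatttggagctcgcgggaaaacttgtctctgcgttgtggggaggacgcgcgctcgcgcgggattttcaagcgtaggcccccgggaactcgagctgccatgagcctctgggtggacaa
PAFAH1B1: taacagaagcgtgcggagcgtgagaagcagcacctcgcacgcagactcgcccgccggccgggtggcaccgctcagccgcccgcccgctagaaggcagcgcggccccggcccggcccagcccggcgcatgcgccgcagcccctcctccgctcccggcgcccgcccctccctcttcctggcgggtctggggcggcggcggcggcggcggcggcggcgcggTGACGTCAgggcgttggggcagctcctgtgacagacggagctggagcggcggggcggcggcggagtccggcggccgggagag
VPS37B: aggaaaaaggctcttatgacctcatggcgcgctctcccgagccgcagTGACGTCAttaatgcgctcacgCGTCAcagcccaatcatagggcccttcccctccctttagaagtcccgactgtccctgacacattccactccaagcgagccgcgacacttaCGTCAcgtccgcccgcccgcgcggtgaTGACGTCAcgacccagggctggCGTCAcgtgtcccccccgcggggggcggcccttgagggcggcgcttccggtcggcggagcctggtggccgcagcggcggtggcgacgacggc
Counted from the gene's start, the full CRE began at -78 in RFC3 and at -32 in PAFAH1B1, while VPS37B held 2 full elements.

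The largest rise was that of DYNLRB1, a light chain of the motor dynein. Its log2 signals on the scrambled arrays were 8.95, 8.66, 7.78 and 9.78, and on the shCREB3 arrays 10.03, 9.91, 9.33 and 10.07. The groups overlapped, since RS4;11 was high on its scrambled array, and the difference within a line was 1.08, 1.25, 1.55 and 0.29. DYNLRB1 rose by 1.04 ± 0.17 (2.06-fold, adjusted p = 0.0418), and its 4 probes had mean differences of 0.98 to 1.11.

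The smallest p-value of all genes belonged to MIR1974, a symbol of the array's design for which no sequence was matched. Its log2 signals rose from 10.59 to 11.18 in Jurkat, from 10.31 to 11.04 in Molt4, from 9.93 to 10.54 in Nalm6 and from 10.50 to 11.18 in RS4;11. The mean rise was 0.65 ± 0.05 (adjusted p = 0.012), and RS4;11 moved as far as the other lines, at 104% of their mean. LOC100008589, a 28S ribosomal RNA gene (RNA28SN5), went from 7.56, 7.60, 7.50 and 7.60 to 8.41, 8.43, 8.52 and 8.09. No shCREB3 array overlapped the scrambled arrays, and the rise was 0.79 ± 0.08 (adjusted p = 0.0298). LOC100008588, an 18S ribosomal RNA gene (RNA18SN5), rose by 0.62 ± 0.09 (adjusted p = 0.0389). Ribosomal RNA genes have many near-identical copies, so neither value can be given to 1 copy.

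The other 8 of the 12 largest rises were 0.58 to 0.70 in the mean. They were ZNF467 (a zinc finger factor), ARPC1A (a subunit of the actin-nucleating Arp2/3 complex), EVI5L (a Rab GTPase activator), HSD17B10 (a mitochondrial dehydrogenase that is also a part of mitochondrial RNase P), MST1 (macrophage stimulating protein), SCNN1D (a sodium channel subunit), SIX5 (a homeobox factor) and CSK (the kinase that inhibits the SRC family). In these 12 genes the RS4;11 difference was 18.8% to 104% of the mean of the other 3 lines.

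Of 16 measured enzymes that make serine, glycine and one-carbon units 4 fell and 0 rose (falls are 1.81% of all genes), 14 had a mean below 0, and the median was -0.137. The 4 that fell were PHGDH, PSAT1 (the next enzyme after PHGDH), SHMT2 (mitochondrial conversion of serine to glycine) and MTHFD2 (mitochondrial folate oxidation). This list and those below were made with earlier results of these data known, so shares set beside all genes are descriptions. The study had already named PHGDH, PSAT1 and SHMT2 from these arrays, so their falls are no independent evidence. Below, the same holds for GPI, DLAT and IDH3A, among others. PSAT1 differed by -0.97, -0.62, -0.46 and -0.31 (mean -0.59 ± 0.10, adjusted p = 0.0413). SHMT2 differed by -0.64, -0.71, -0.55 and -0.16 (mean -0.51 ± 0.09, adjusted p = 0.0421), and MTHFD2 by -0.75, -0.93, -0.86 and -0.40 (mean -0.73 ± 0.08, adjusted p = 0.0335). PSPH, which completes serine synthesis, differed by -0.13 (adjusted p = 0.116). The glycine cleavage enzyme GLDC had a mean of 0.15 (adjusted p = 0.0809).

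Of 20 measured genes of glycolysis and lactate export 3 fell and 0 rose, against 1.81% falls among all genes. A mean below 0 was found in 15 of the 20, against 6067 of 12508, and the median was -0.189. GPI, which converts glucose 6-phosphate, differed by -0.45, -0.39, -0.64 and -0.17 (mean -0.41 ± 0.07, adjusted p = 0.0432). GAPDH fell by 0.36 ± 0.07 (adjusted p = 0.0443) and LDHA, which makes lactate, by 0.28 ± 0.05 (adjusted p = 0.0432). The later enzymes PGAM1 (mean -0.39, adjusted p = 0.0532), ENO2 (-0.23, adjusted p = 0.0547) and PKM2 (-0.27, adjusted p = 0.0795) were lower in 4 of 4 lines and did not pass. The glucose carrier SLC2A1 had a mean of 0.17 (adjusted p = 0.179). Of 24 genes of pyruvate dehydrogenase and the TCA cycle 2 fell, DLAT (mean -0.37 ± 0.07, adjusted p = 0.0431) and IDH3A (-0.44 ± 0.08, adjusted p = 0.0458).

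ATF4 is a factor that raises amino acid uptake and synthesis when amino acids run short. Of 25 measured genes of its list 3 fell and 0 rose, 21 had a mean below 0, and the median was -0.107. Over all genes 1.81% fell and 6067 of 12508 had a mean below 0. GPT2 (mitochondrial alanine transaminase) fell by 0.83 ± 0.11 (adjusted p = 0.0389), SLC7A5 (the carrier of leucine and other large amino acids) by 0.62 ± 0.10 (adjusted p = 0.0389) and TRIB3 (a pseudokinase) by 0.40 ± 0.05 (adjusted p = 0.0324). Of 20 aminoacyl-tRNA synthetases 19 had a mean below 0, 1 fell (AARS, -0.35 ± 0.07, adjusted p = 0.0458), and the median was -0.0895. PHGDH, PSAT1, SHMT2 and MTHFD2 are themselves known ATF4 targets, but they were not in the ATF4 list, so its 3 falls leave them out. Some other lists share members: LDHA is counted in glycolysis and among the MYC targets.

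Of 34 measured MYC targets and factors of ribosome biogenesis 2 fell (5.88%), NCL and LDHA, 32 had a mean below 0, and the median was -0.137. Over all genes 1.81% fell and 6067 of 12508 had a mean below 0. BRIX1 was not in this list. By line the list median was -0.133, -0.21, -0.173 and -0.02. MYC itself differed by -0.31, -0.11, 0.01 and 0.00 (mean -0.10, adjusted p = 0.353). Among 33 ribosomal proteins 1 fell (3.03%), RPL29 (-0.56 ± 0.07, adjusted p = 0.034), and among 36 proteasome genes 1 fell (2.78%), PSMD5 (-0.29 ± 0.05, adjusted p = 0.0458). These shares lie near the 1.81% of all genes.

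Proliferation genes changed in both directions. Of 44 measured genes of DNA replication 5 fell (11.4%) and 2 rose (4.55%), with a median of -0.0725, while 1.81% of all genes fell and 1.13% rose. RFC3 differed by -0.76, -1.11, -1.16 and -0.38 (mean -0.85 ± 0.12, adjusted p = 0.0389), and FEN1, the flap endonuclease of Okazaki fragments, by -0.52, -0.99, -1.32 and -0.28 (mean -0.78 ± 0.15, adjusted p = 0.0458). TFDP1, the partner of E2F factors, fell by 0.61 ± 0.09 (adjusted p = 0.0389), ORC2L (ORC2, origin recognition) by 0.31 ± 0.06 (adjusted p = 0.0486) and MCM10 by 0.21 ± 0.04 (adjusted p = 0.0497). E2F2, a factor of S-phase entry, rose by 0.37 ± 0.06 (adjusted p = 0.0389) and GINS3, of the replicative helicase, by 0.35 ± 0.06 (adjusted p = 0.0389). Of 45 genes of mitosis 2 fell (4.44%) and 1 rose (2.22%), with a median of 0.00622. The spindle checkpoint gene MAD2L1 fell by 0.56 ± 0.11 (adjusted p = 0.0458) and FAM64A, active in mitosis, by 0.40 ± 0.07 (adjusted p = 0.0458), and the kinesin KIF20A rose by 0.28 ± 0.05 (adjusted p = 0.0389).

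Apoptosis genes and CDK inhibitors gave few calls, beside 1.13% rises and 1.81% falls over all genes. Of 30 measured inducers of apoptosis 2 rose and 1 fell: the adaptor CRADD rose by 0.42 ± 0.06 (adjusted p = 0.0389), DEDD2 rose by 0.31 ± 0.06 (adjusted p = 0.0458), and BNIP3, a BCL2 relative of mitochondria, fell by 0.45 ± 0.07 (adjusted p = 0.0389). Of 13 inhibitors of apoptosis 0 passed. Of 24 CDK inhibitors and p53 targets 1 rose, ZMAT3 (0.27 ± 0.05, adjusted p = 0.0463).

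The study chose genes of proliferation, glucose metabolism and apoptosis on these arrays, so their direction here is no independent evidence. Of the 8 genes of proliferation matched by symbol 6 fell with shCREB3 (PAFAH1B1, PSMD5, STAT6, TFDP1, UBE2V2 and MCM10), with a list median of -0.284. CSNK1A1 (mean -0.03, adjusted p = 0.69) and UBE2V1 (-0.06, adjusted p = 0.397) did not pass. Of its 8 genes of glucose metabolism 6 fell (PHGDH, PSAT1, SHMT2, GPI, DLAT and IDH3A), while ALDOC (-0.30, adjusted p = 0.0654) and PKM2 (-0.27, adjusted p = 0.0795) did not pass. Of its 3 genes of apoptosis 1 rose, DEDD2, while BNIP2 (0.24, adjusted p = 0.0589) and BAD (0.09, adjusted p = 0.249) did not pass. At an unadjusted p under 0.05 in the same fit, 8 metabolism and 6 proliferation genes were lower and 2 apoptosis genes were higher. Over all 12508 genes 1589 were lower and 1524 higher.

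In the group of dynein, dynactin and endosome sorting, 3 of 27 measured genes rose and 3 fell (11.1% each). Over all genes 1.13% rose and 1.81% fell. The members of this list were chosen with earlier results of these data known, so the contrast is a description and not a test. DYNLRB1, VPS37B (0.52 ± 0.10, adjusted p = 0.0458) and VPS26A, of the retromer (0.39 ± 0.07, adjusted p = 0.0458), rose. PAFAH1B1 (-0.37 ± 0.06, adjusted p = 0.0409), the sorting nexin SNX5 (-0.36 ± 0.07, adjusted p = 0.0458) and the dynein intermediate chain DYNC1I2 (-0.28 ± 0.05, adjusted p = 0.0428) fell. Of 26 genes of cathepsins, cystatins and lysosomes 1 rose, the cholesterol carrier NPC2 (0.25 ± 0.04, adjusted p = 0.0428), and 1 fell, CSTB.

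Of 21 measured MHC genes 19 had a mean above 0, with a median of 0.0959, and 1 rose: HLA-B, by 0.35, 0.24, 0.58 and 0.22 (mean 0.35 ± 0.07, adjusted p = 0.0458). Over all genes 6441 of 12508 had a mean above 0 and 1.13% rose. The MHC list median was 0.265 in Nalm6 and 0.039 to 0.048 in the other lines. IGLL1, the surrogate light chain of B cell precursors, rose by 0.36 ± 0.06 (adjusted p = 0.0438), the 1 of 10 B cell markers that passed, and 0 of 14 T cell markers passed. The brightest IGLL1 probe was detected on all 12 arrays, those of the T-ALL lines included. It differed by 0.49, 0.35, 0.41 and 0.21. Among 17 histone genes H2AFX rose (0.39 ± 0.06, adjusted p = 0.0389). Of 23 small noncoding RNAs 0 passed, with a median of 0.178, which was 0.212, 0.341 and 0.228 in Jurkat, Molt4 and Nalm6 and -0.018 in RS4;11. Of 33 interferon-stimulated genes and of 16 genes of small RNA processing 0 and 0 passed, with medians of -0.0269 and -0.0126. Sterol and fatty acid synthesis (29 genes, median -0.0527), the unfolded protein response (21 genes, 0.0179), heat shock proteins (20 genes, -0.0175), NF-kB factors (19 genes, 0.0137) and lymphoid transcription factors (32 genes, 0.0742) had 0 calls as well. These list medians stand beside one of 0.00368 over all genes, and no list was tested as a set. Under at least 1 alternative the sign of the median turned for the TCA cycle, ribosomal protein, mitosis, apoptosis, heat shock, interferon, small RNA processing, NF-kB and histone lists.

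**Figure D3:**
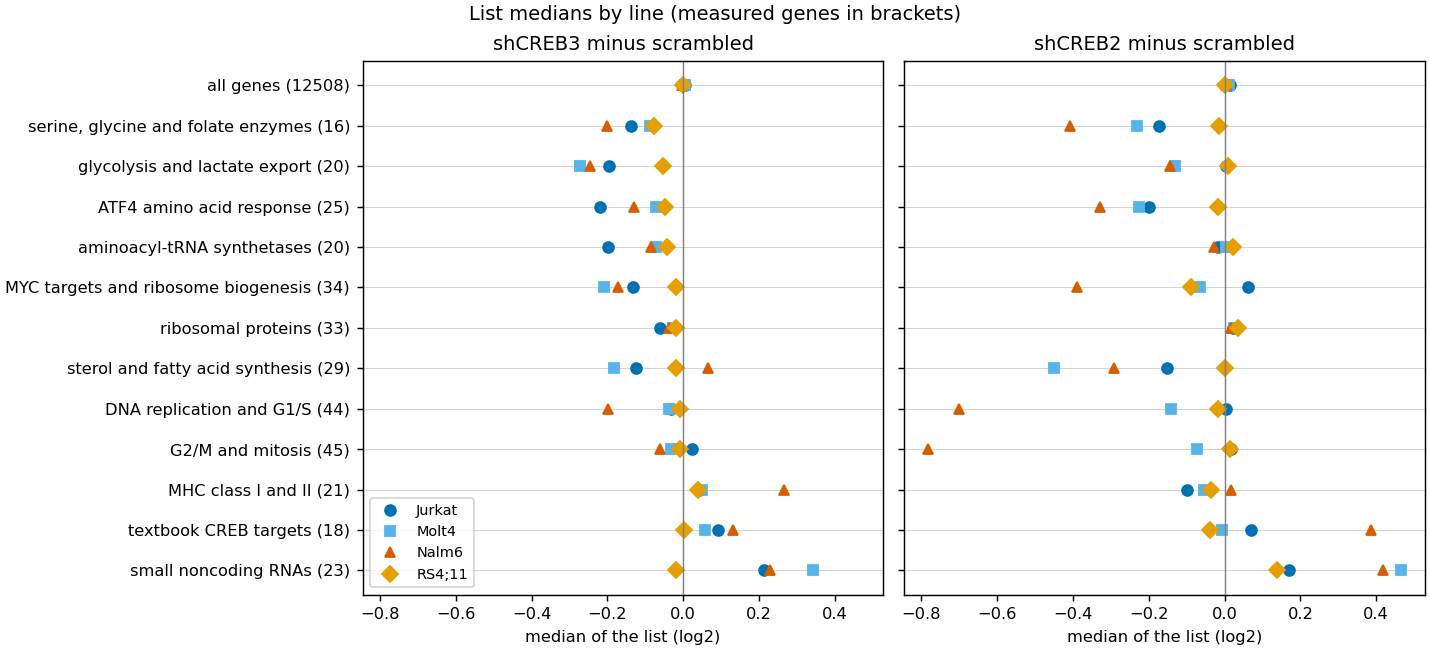
Median log2 difference from the scrambled array over all genes and over the measured genes of 12 lists (y axis, number of genes in brackets) in each line, for shCREB3 (left) and shCREB2 (right). With shCREB3 the medians of serine, glycolysis, ATF4, tRNA synthetase and ribosome biogenesis genes lay below 0 in 4 of 4 lines, and with shCREB2 the Nalm6 medians of DNA replication and mitosis lay at -0.7 and -0.783.

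The lines differed in the size of the response. The spread (SD) of the shCREB3 minus scrambled differences over 12508 genes was 0.174 in Jurkat, 0.204 in Molt4, 0.243 in Nalm6 and 0.105 in RS4;11. Genes higher or lower by at least 1 log2 numbered 3 (0.024%) and 14 (0.112%) in Jurkat, 7 (0.056%) and 26 (0.208%) in Molt4, 23 (0.184%) and 38 (0.304%) in Nalm6, and 0 and 0 in RS4;11. These counts come from 1 array against 1 array and carry no test. RS4;11 had the smallest difference in 193 of the 227 falls and in 113 of the 141 rises, and Nalm6 the largest in 131 and 76. The median over the 227 falls was -0.385, -0.434, -0.486 and -0.207 in the 4 lines.

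Whether a line followed the others was read from genes chosen without it. Of 18 genes with a mean difference of -1 or below in Jurkat, Molt4 and Nalm6, 18 were lower in RS4;11, with a median of -0.41 against -1.26 in the 3 lines. Of 10 such genes chosen without Jurkat 10 were lower there (median -1.56), of 9 chosen without Molt4 9 (median -1.74) and of 6 chosen without Nalm6 6 (median -2.26). Over all genes 6067 had a mean below 0 and 6441 above. The lower genes thus moved the same way in the line that had no part in choosing them, and least in RS4;11. Of 10 genes with a mean of 0.8 or above in the other lines, 9 were higher in RS4;11, with a median of 0.148 against 0.895. Of such genes chosen without Jurkat 2 of 2 were higher there, without Molt4 1 of 1 and without Nalm6 2 of 3. Over 12508 genes the differences of Jurkat and Molt4 had a Pearson r of 0.672, those of Nalm6 had 0.54 and 0.564 with these lines, and those of RS4;11 had 0.344, 0.409 and 0.386 with Jurkat, Molt4 and Nalm6. Genes are not independent replicates, and the arrays share the vector and 1 normalization.

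**Figure D4:**
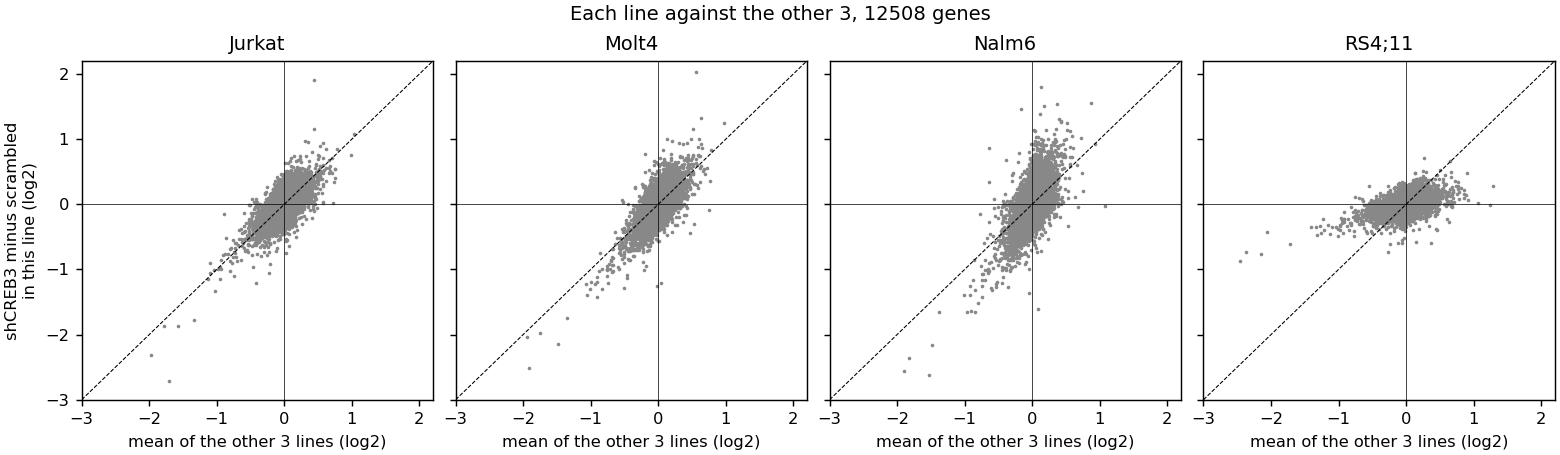
Difference of shCREB3 minus scrambled in 1 line (y axis, log2) against the mean of the other 3 lines (x axis, log2), 1 panel for each line and 1 point for each of 12508 genes, with the line of equality dashed. In the RS4;11 panel the points lie close to the horizontal axis, and all 18 genes at -1 or below on the x axis lie below 0.

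The 5 largest rises within each line are given here as values without a test. They are not all particular to a line, since several of these genes, such as DYNLRB1, MIR1974 and ATOX1, were higher in all 4 lines. In Jurkat the largest rise was that of ACTG2, a smooth muscle actin, by 1.90, followed by STS-1 (an older symbol of UBASH3B, a phosphatase that restrains receptor signalling) by 1.16 and DYNLRB1. The row under the symbol UBASH3B, from another probe, had 0.69. CD248 (0.97) and the cytokine LTB (0.96) came next. In Molt4 it was RN7SK, the small RNA that holds the elongation factor P-TEFb inactive, by 2.03, followed by ACTG2 by 1.32, DYNLRB1, RN5S9 (a 5S ribosomal RNA gene) by 1.15 and CTSG (cathepsin G) by 1.01. In Nalm6 the largest rise was that of FAM43A by 1.80, followed by DYNLRB1 (1.55), ARID3A (a B lineage factor) by 1.54, SNORD46 by 1.51 and SNORD13 by 1.46. In RS4;11 the 5 largest rises were MIR1978 (0.71), MIR1974 (0.67), ATOX1 (a copper chaperone, 0.52), TUBA4A (an alpha tubulin, 0.51) and SUSD3 (0.49). ATOX1 also rose over the 4 lines (0.51 ± 0.05, adjusted p = 0.0298). With shCREB2, against the same scrambled arrays, RN7SK differed by 1.57 and RN5S9 by 1.41 in Molt4, and FAM43A by 0.925 in Nalm6. The rises of these genes are thus not particular to shCREB3. Other genes did not rise with shCREB2: ACTG2 differed by -0.08 in Jurkat and -0.41 in Molt4, CTSG by -0.75 in Molt4 and MIR1974 by -0.04 in RS4;11.

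The largest falls within a line were mostly the same genes. CSTB, PHGDH and MED20 were among the 5 largest falls in each of the 4 lines, METAP2 in Jurkat, Molt4 and Nalm6, and MAPK3 in Jurkat, Molt4 and RS4;11. The others were NCL in Nalm6 (-1.66) and M160 (an older symbol of the scavenger receptor CD163L1) in RS4;11 (-0.73), which differed by -0.89 in Nalm6 too. The row under the symbol CD163L1, from another probe, had -0.60 in RS4;11. HBA2, a hemoglobin chain and the 1 measured erythroid marker, differed by -1.61 in Nalm6, where its log2 signal was 8.55 on the scrambled array and 6.94 on the shCREB3 array and 6.89 to 7.10 on the scrambled arrays of the other lines. With shCREB2 HBA2 also differed by -1.61 in Nalm6. Both values rest on the same scrambled array, so this difference is not particular to shCREB3.

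No gene passed a test for a response that differs by lineage. Of 12508 genes 0 passed in the limma fit of the 2 T-ALL against the 2 BCP-ALL differences, with a smallest adjusted p of 0.265, while 352 and 297 genes had a higher or lower response in T-ALL at an unadjusted p under 0.05. The smallest p-values for a higher response in T-ALL belonged to STS-1 (1.16 and 1.01 in Jurkat and Molt4 against 0.21 and 0.09 in the BCP-ALL lines, adjusted p = 0.272), ACTG2 (1.90 and 1.32 against -0.02 and 0.02, adjusted p = 0.272), M160 (0.00 and 0.07 against -0.89 and -0.73, adjusted p = 0.272) and GZMA, granzyme A (0.81 and 0.92 against 0.12 and 0.19, adjusted p = 0.311). TMEM98 went the other way, with -1.21 and -1.09 in T-ALL against -0.15 and -0.03 in BCP-ALL (adjusted p = 0.265), as did GIMAP4, a GTPase of lymphocytes (-0.73 and -1.0 against 0.08 and 0.02, adjusted p = 0.311). ACTG2, M160, TMEM98 and GIMAP4 were detected on 4 of the 8 arrays. Whether a gene near background could still fall was not tested. Without RS4;11, which leaves 1 BCP-ALL line, 150 genes passed.

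The arrays with shCREB2, the other vector against CREB1, were set beside these values. Taken against the same 4 scrambled arrays, so that the comparisons are not independent, shCREB2 gave 0 calls (1376 higher and 1269 lower at an unadjusted p under 0.05, smallest adjusted p 0.0935). The steepest shCREB3 falls were not matched: with shCREB2 CSTB differed by -0.07 ± 0.05, MED20 by 0.10 ± 0.06, METAP2 by -0.09 ± 0.06 and MAPK3 by 0.18 ± 0.06. PHGDH differed by -0.53 ± 0.15 with shCREB2, with -0.56, -0.50, -1.04 and -0.02 in the 4 lines. PSAT1 was lower by more with shCREB2 (-1.72 ± 0.28) than with shCREB3 (-0.59 ± 0.10), as was MCM10 (-0.87 and -0.21). Among the rises, DYNLRB1 (1.29 with shCREB2 and 1.04 with shCREB3), EVI5L (0.87 and 0.67), HSD17B10 (0.90 and 0.64), ARPC1A (0.77 and 0.68) and ATOX1 (0.61 and 0.51) were higher with both, while CSK (-0.04 and 0.58), SCNN1D (0.05 and 0.61) and MST1 (0.02 and 0.62) had means near 0 with shCREB2. GPT2 differed by -0.83 with either vector.

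The direct test of shCREB3 against shCREB2 used the 8 arrays of these vectors, paired by line, without the scrambled arrays. Of 12508 genes 0 passed, with a smallest adjusted p of 0.0537, and 1423 were higher and 1735 lower with shCREB3 at an unadjusted p under 0.05. The difference was -1.99 ± 0.28 for CSTB, -1.90 ± 0.30 for MED20, -1.63 ± 0.16 for MAPK3 and -1.43 ± 0.21 for PHGDH (adjusted p = 0.0537 each). MLLT11, a gene first known as a fusion partner in leukemia, was lower with shCREB3 (-0.68 ± 0.08) and higher with shCREB2 (0.58 ± 0.07), a difference of -1.25 ± 0.13 with the same adjusted p. USP14, a deubiquitinase of the proteasome, differed by 0.00 ± 0.04 with shCREB3 and by -0.74 ± 0.08 with shCREB2. TGFBR2, a TGF-beta receptor, and HHEX, a homeobox factor of early lymphoid cells, were higher with shCREB3 than with shCREB2 by 0.63 and 0.46, also at 0.0537. The result depended on the fit: with all 12 arrays in 1 fit 1772 genes passed, and without RS4;11 599 did. DYNLRB1 differed by -0.25 ± 0.12 between the vectors (adjusted p = 0.247), which does not show that they acted alike.

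**Figure D5:**
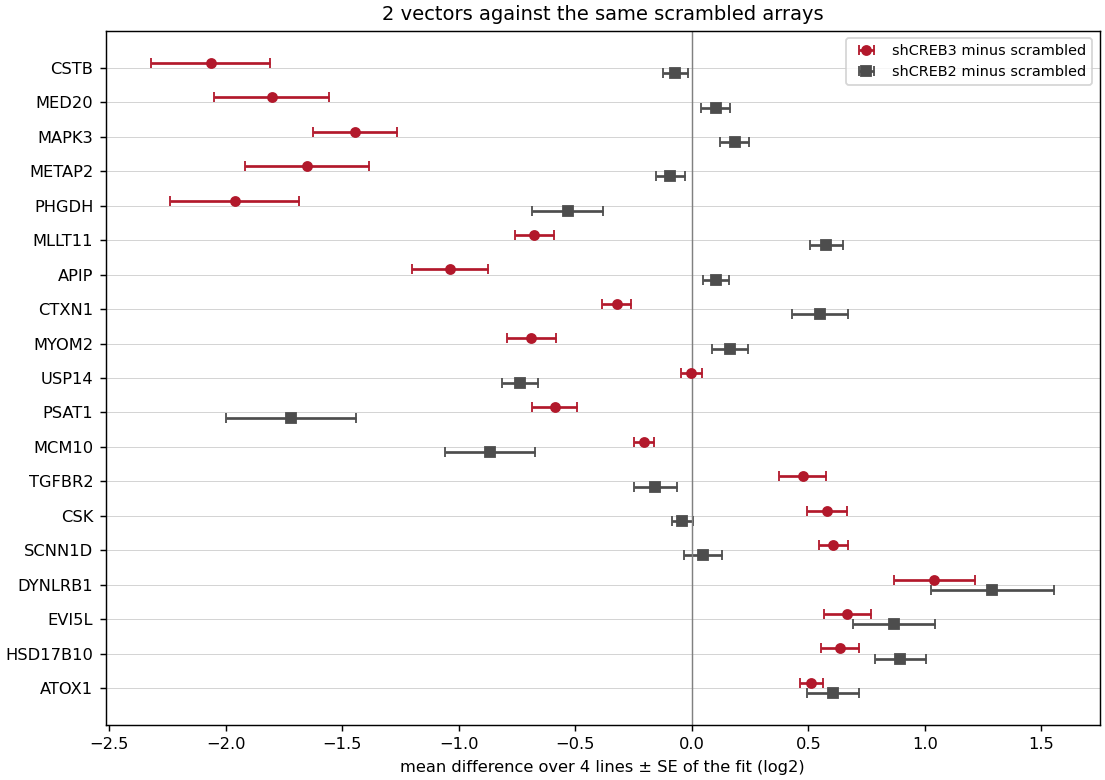
Mean difference from the scrambled arrays over 4 lines ± SE of the limma fit (x axis, log2) for 19 genes (y axis), with shCREB3 in red circles and shCREB2 in grey squares. CSTB, MED20, MAPK3 and METAP2 lie far below 0 with shCREB3 alone, PSAT1 and MCM10 lie lower with shCREB2, and DYNLRB1, EVI5L, HSD17B10 and ATOX1 lie above 0 with both.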

How the data were processed

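Expression was measured on Illumina BeadChips in 12 RNA samples, 1 array for each of 4 cell lines with each of 3 vectors, and the 8 arrays of shCREB3 and scrambled control were compared. The authors deposited a table of gene means (34694 rows, 31424 with a symbol) as natural log signals, quantile-normalized between arrays without background subtraction, which can understate changes of dim genes. These were converted to log2. The authors also deposited non-normalized signal values and a detection p-value for each of 47323 probes. In 98.1% of these signals the decimal mark was lost. It was restored by matching the gene means (7 probes left out), and these signals served for alternatives and for values of single probes. All per-sample columns were matched to the labels.

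Genes with a detection p under 0.01 on at least 4 of 12 arrays were kept (12508, of them 7821 with 1 probe, and 9946 matched to a RefSeq symbol). limma 3.58.1 in R 4.3.3 (lmFit, eBayes) was fitted to the 8 arrays, blocking on cell line because a pair comes from the same line, with Benjamini-Hochberg adjustment over all genes and a threshold of 0.05. The response of T-ALL and BCP-ALL lines was compared on the 4 differences, and shCREB3 with shCREB2 in the same paired way. Errors are SE of these fits, whose precision is set by how few arrays there are. In data simulated for the shCREB3 comparison, 100% of 100 changes of 0.5 and of 1 were recovered, and 17 unchanged genes were called. In the measured data, not every mean difference above 0.5 passed the paired limma fit. RN7SK (0.93, adjusted p = 0.0895) and ACTG2 (0.81, adjusted p = 0.158), whose differences varied between lines, did not. The simulated recovery is thus not the share of real changes that the test finds.

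Named genes were the CREB family, the genes the study names, the 12 largest rises and falls past the test, the 5 largest differences per line in each direction, the genes of smallest p for the lineage and vector comparisons, and called members of gene lists. CD3E, CD79B, BLK, PSPH, GLDC, PGAM1, ENO2, SLC2A1 and MYC were named after their values were seen. A few genes are not reported here. The members and lists were chosen with earlier results of these data known. Alternatives were the fit over 12 arrays, the fit without the block, the methods' t-test, other detection filters, the brightest probe with quantile, median or normexp (offset 50) processing, and leaving out each line.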

Additional observations from a re-analysis of the deposited data

Results flagged for a closer look

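In 11 of 151 results examined, 1 line stood apart from the other 3 by more than Dixon's 95% limit for 4 values. Chance gives about 1 in 20 for values not chosen by these differences. Many of the genes examined were chosen by them, such as ARID3A and MIR1978 as large rises within a line, so that rate is no baseline here. The line that stood apart was RS4;11 in 6 results, Nalm6 in 4, Molt4 in 1 and Jurkat in 0. The values are differences of shCREB3 minus scrambled on the log2 scale.

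RS4;11 had the smaller fall in CSTB (-0.87, against -2.55 to -2.32 in the other lines), in MAPK3 (-0.61, against -1.78 to -1.65), in ADIPOR1 (-0.40, against -1.26 to -1.14) and in the amino acid carrier SLC7A5 (-0.21, against -0.80 to -0.72). It had the larger difference in CREB3 (-0.33, against -0.08 to -0.06) and in MIR1978 (0.71, against 0.25 to 0.29). CREB3 lay near background, detected on 3 of the scrambled arrays and 1 of the shCREB3 arrays.

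Nalm6 had the larger rise in MST1 (1.00, against 0.49 to 0.51) and in ARID3A (1.54, against 0.34 to 0.41). Its list medians also stood apart for DNA replication (-0.20, against -0.04 to -0.01) and for the MHC genes (0.26, against 0.04 to 0.05). The median of the inducers of apoptosis was 0.01 in Molt4 and -0.01 in the other lines, so this gap is small in size. The part of the share of transduced cells in these gaps was not tested.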

How the results depend on the processing

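Of 115 named genes 109 kept their direction under every alternative, and so did all 70 that passed the test. For these 70 only the brightest-probe alternatives could have turned the direction. Their 4 lines share it, so leaving out a line cannot turn it, and the other alternatives keep the same mean. The paired fit called 368 genes. It called 126 with all 12 arrays in 1 fit, 707 with genes detected on all 8 arrays, and, with the brightest probe, 706 (quantile), 1037 (median scaling) and 610 (normexp). The methods' t-test gave 1960 at a paired p under 0.05 and 0 after adjustment, paired or unpaired. Without the replicate block, which pairs the arrays of a cell line, 0 genes passed, and 0 gene lists kept a called member, against 13 lists with 12 arrays. Leaving out a line gave 0 to 1041 calls (0 without Jurkat or Molt4, 3 without Nalm6, 1041 without RS4;11) and 0 to 34 lists with a call.

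CREB1 (0.24) passed the methods' paired t-test at an unadjusted p of 0.0368, and not after Benjamini-Hochberg adjustment (0.307). By adjusted p it passed with the stricter detection filter (0.24) and with the brightest probe under quantile normalization (0.28) or median scaling (0.31). Without a line its mean ranged from 0.18 to 0.29 and did not pass. The comparison with shCREB2, with 0 calls, gave 1772 (12 arrays), 835 and 2176 (unpaired and paired t-test, unadjusted), 469 (stricter filter), 337, 469 and 372 (brightest probe with quantile, median and normexp processing), and 0 to 599 with a line left out. The lineage comparison gave 661 at an unadjusted p, 1 with either quantile or median scaling of the brightest probe, and 0 to 150 with a line left out. The cause of these shifts was not tested.

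Within a line, a threshold of 1.5 left 6, 6 and 14 genes in Jurkat, Molt4 and Nalm6. The brightest probe gave 27 in Jurkat and 2 in RS4;11, median scaling 2 in RS4;11, and normexp 41, 69, 166 and 3 in Jurkat, Molt4, Nalm6 and RS4;11.

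The genes whose direction turned had means near 0 or rested on 1 line. CSNK1A1 was 0.05, 0.10 and 0.06 with the brightest probe (quantile, median, normexp) and USP14 0.03 with median scaling. With a line left out, CREBL2 ran from -0.02 to 0.04, USP14 from -0.02 to 0.02, SNORD13 from -0.17 to 0.47, BHLHB2 from -0.29 to 0.01 and HBA2 from -0.55 to 0.08. The array headers give no slide, so no slide block was run.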
